A study of Mus musculus with 4 samples.

Results

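The ubiquitin-specific proteases (USPs) are the largest family of deubiquitinases, the enzymes that remove ubiquitin from proteins. The genes were taken by symbol, as Usp followed by a number with an optional x or l, and the rule left out 2 symbols. This gave 48 genes of the 54446 features that carry a mouse Ensembl ID, and 47 of the 48 had enough counts to be tested. RNA was sequenced from 4 libraries of tongue-derived epithelial cells of C57BL/6 mice, grown in RPMI-1640 with 10% FBS. Control 1 and Control 2 are labelled wild type. KO-3 and KO-4 are labelled as lacking Otub2, which encodes a deubiquitinase of the separate OTU family, throughout the animal. The labels give no age, deleted exon, number of animals or link between libraries and animals, so the spread between libraries may be technical and p-values measure only that spread.

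Most USPs are cysteine proteases that cleave the bond between ubiquitin and a substrate, or between ubiquitins of a chain. Family members differ in where they act: at histones, at the proteasome, on endosomes and mitochondria, or on regulators of the cell cycle and of signalling. In stratified epithelia such enzymes set the stability of growth factor receptors, of p53 and its ligase Mdm2, and of Hippo and Wnt pathway proteins. A transcript level does not measure enzyme activity.

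Gene counts summed to between 11548186 and 22719550 per library. Counts of Otub2 itself were 393, 367, 272 and 495 in Control 1, Control 2, KO-3 and KO-4, or 27.5, 26.9, 19 and 24 CPM (counts scaled to a common library size with TMM factors, which come from a trimmed mean of gene ratios). Its log2 fold change was -0.34 (SE 0.302, n = 2 libraries per group, edgeR adjusted p = 0.485), and a count over the whole gene does not check a deletion. The count columns of these libraries are headed OE, not KO, and the sample titles were followed. Keratinocyte markers were abundant in every library, at a sum of 62444 and 56331 CPM over 10 genes in the controls and 30808 and 42791 CPM in KO-3 and KO-4, with 0 of 10 above both controls and 6 below. The library labelled KO-3 stood apart. Its 12 salivary secretory markers summed to 423711 CPM against 10.6, 8.50 and 29.1 CPM in Control 1, Control 2 and KO-4, and its 8 cardiomyocyte markers to 16811 CPM against 57.7, 56.3 and 34.3 CPM. Among the salivary markers Smr3a, Dcpp1 and Dcpp2 were at 0 counts in KO-3, where Mucl2 alone had 5462635. Its 8 skeletal muscle markers summed to 427 CPM, against 20.8, 19.9 and 65.2 CPM in the other libraries, of which Ckm and Acta1 made up 290 and 130 CPM, while Myh1, Myh4, Tnnt3, Mylpf and Myod1 were lower in KO-3 than in both controls. Fibroblast markers (8 genes) summed to 155 and 202 CPM in controls against 721 in KO-3 and 486 in KO-4. Of the 8, 6 lay above both controls and 0 below, beside 45.8% and 9.79% of all genes of mean 10 to 200 CPM. Smooth muscle markers (6) summed to 54.5, 52.7, 378 and 91.7 CPM in the order of the libraries, and endothelial markers (6) to 70.9, 61.2, 250 and 68.7 CPM. Leukocyte markers (8) summed to 821, 770, 343 and 346 CPM, of which S100a8 alone made up 760, 706, 204 and 292 CPM. Of these 8, 1 lay above both controls and 4 below, beside 26.9% and 33.1% of all genes tested. Lyz2, Csf1r and Adgre1 were highest in KO-3. The part of these cell types in the USP values was not tested. In the library labelled KO-4, 6 proliferation markers summed to 1153 CPM against 228, 310 and 277 CPM in Control 1, Control 2 and KO-3. In bulk RNA, fewer cells of a type and less RNA per cell cannot be told apart.

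The USP family was transcribed broadly in tongue epithelial cells. At least 10 counts were found for 47 members in each control and for 46 in each library labelled KO-3 or KO-4, and the family share of gene counts was 0.222%, 0.248%, 0.182% and 0.335% over the 4 libraries. Mean levels per gene length, as FPKM (counts scaled by gene length and library size, from the authors' deposited table), ran from 0.0675 to 23.3, with 11 members at 10 or more and 7 under 1. The 8 most abundant by mean FPKM were Usp5, Usp4, Usp7, Usp19, Usp22, Usp39, Usp25 and Usp8, and together they made up 48.8% and 45.3% of the summed USP FPKM in the controls, against 40.3% in KO-3 and 43.4% in KO-4.

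These leading members cover most of the family's tasks. Usp5, which takes apart free ubiquitin chains, was at 23.8 FPKM in Control 1, 21.7 in Control 2, 16.6 in KO-3 and 31.1 in KO-4. Usp4, a regulator of TGF-beta signalling and splicing, was at 24.5, 21.1, 12.4 and 23.3 FPKM in the same order. Usp7, which deubiquitinates Mdm2 and p53, was at 22.3, 21.4, 11.4 and 24.9 FPKM. All 3 were lowest in KO-3 by FPKM. On the TMM scale KO-3 was not set apart, with Usp4 at 186, 158, 172 and 186 CPM and Usp7 at 152, 145, 142 and 178 CPM. Usp19, an enzyme anchored at the endoplasmic reticulum, Usp22, the deubiquitinase of the SAGA coactivator complex, Usp39, a spliceosome factor of the family, and Usp25, a relative of Usp28, lay between 8.23 and 27.1 FPKM in all libraries. The lowest were Usp26 and Usp29, genes known mainly from the germ line and brain. Usp26 had 5, 2, 9 and 3 counts and was not tested.

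To ask whether the family differs between the groups, each member was tested within a fit over all 21916 genes. With edgeR's quasi-likelihood test 0 of 47 members passed an adjusted p of 0.05 in either direction (0% of all genes were called higher and 0% lower), and the adjusted p of members ran from 0.166 to 0.993. Before adjustment, p was under 0.05 for 9 higher members and 0 lower ones, or 19.1% and 0% of members, beside 9.42% and 15.2% of all genes. The voom test called 0 members (0% of all genes), and before adjustment 8 higher members and 0 lower ones had p under 0.05, beside 7.54% and 14.9% of all genes. DESeq2 called 2 members higher, Usp33 and Usp28, and 0 lower, beside 2.86% and 1.02% of all genes. With edgeR on library size only, 0 members were called although 0.169% of all genes were called higher and 6.54% lower, and without the filter on low counts 0 members beside 0.0127% and 0.00633%. The members' median log2 fold change (KO-labelled over controls) was 0.42, beside 0.086 over all genes tested, and 40 of 47 were positive (85.1%, beside 53.4% of all genes).

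**Figure D1:**
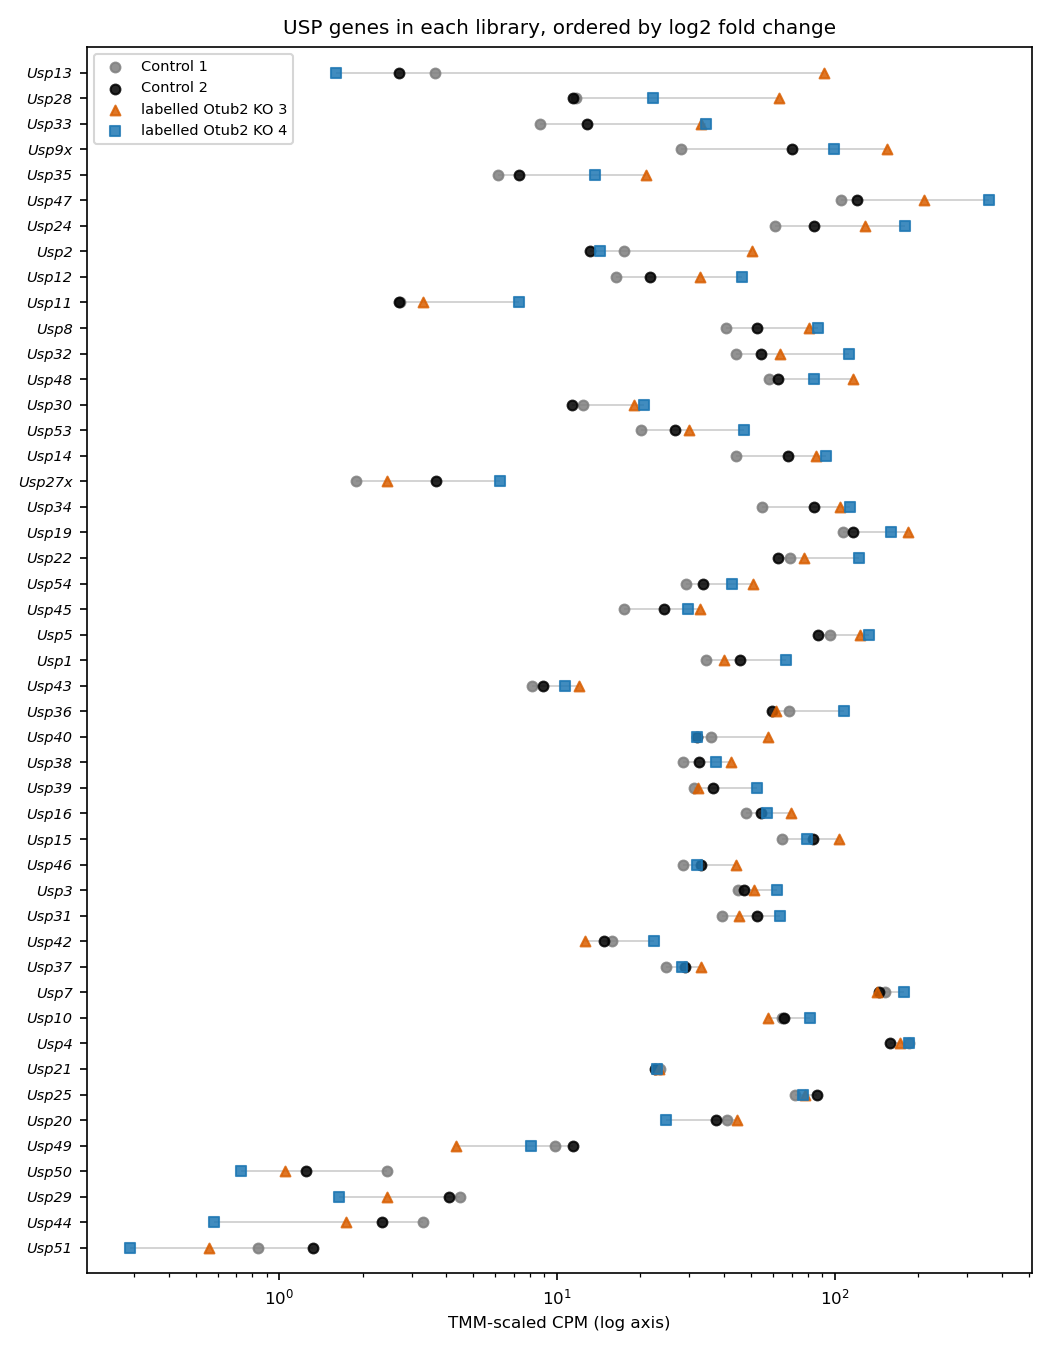
TMM-scaled CPM (log axis) of the 47 tested USP genes in each of the 4 libraries, ordered by log2 fold change; circles are controls, the triangle is KO-3 and the square KO-4, and grey lines span the libraries. Usp13 stands apart through KO-3 alone at 91.9 CPM, while for Usp33 both KO-labelled points lie at 33.0 and 34.3 CPM, right of both controls.

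This balance differed with the abundance of the genes and with the scaling. Of 46 members with a mean of at least 1 CPM, 24 lay above both controls in both KO-labelled libraries and 4 below, beside 33% and 22.8% of all such genes. Among genes of mean 10 to 200 CPM, the range that holds 39 members, the median log2 fold change was 0.57 for members and 0.41 for all 9289 genes. Of these 39 members 22 lay above (56.4%) beside 45.8% of all, and 0 below beside 9.79%. With RLE factors, those of DESeq2, 28 members lay above and 4 below, beside 35.5% and 21.2% of all genes. Upper-quartile scaling gave 11 above and 12 below, beside 12.4% and 40.9%. Scaling by library size gave 5 and 8, beside 10.9% and 34.1%, and median centring of the libraries gave 7 and 6, beside 15.4% and 30.3%. Without the filter on low counts 30 members lay above and 4 below, beside 39.8% and 18.7% of all genes. With features that carry no Ensembl ID kept in the scaling 37 lay above and 4 below, beside 41.8% and 22.8%. The members' median stood above that of all genes tested by 0.33 to 0.42 under the 5 scalings. A scaling shifts all genes by nearly the same amount, so the 5 are not separate checks of this gap. Within the range of 10 to 200 CPM the gap on the TMM scale was 0.16. The sign of the members' median was not kept, at -0.043 under upper-quartile scaling.

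**Figure D2:**
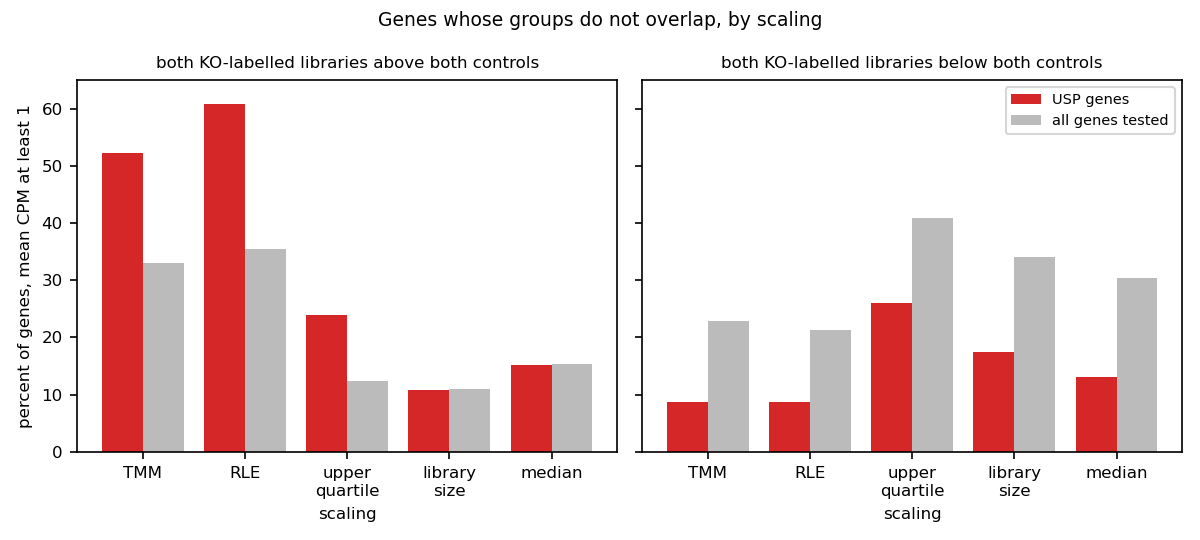
Percent of genes of mean CPM at least 1 whose KO-labelled libraries lie both above (left) or both below (right) both controls, for USP genes (red) and all genes tested (grey), under 5 scalings. The red bar for higher genes falls from 24 of 46 members under TMM to 5 under library size only.

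Under all 5 scalings 5 members lay above both controls and 4 below, which is 10.9% and 8.7% of the 46 members, beside 8.11% and 21.3% of all genes. The 5 were Usp9x, Usp28, Usp33, Usp35 and Usp48, and the 4 were Usp29, Usp44, Usp49 and Usp50. Usp51, with a mean under 1 CPM, also lay below in all 5. These sets were read off after the values were seen, and none of their members passed the edgeR test.

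Among USPs of membranes and organelles, 5 of 6 lay above both controls and 0 below on the TMM scale. Of all genes of mean CPM at least 1, 33% lay above and 22.8% below, and of those of 10 to 200 CPM 45.8% and 9.79%. The median log2 fold change was 0.79 for the 6 and 0.41 for all genes of 10 to 200 CPM. Usp33 (ENSMUSG00000025437, protein coding, chromosome 3, 152346478 to 152393617, plus strand, GRCm38), an enzyme of the secretory pathway that acts on receptors such as Robo1 and the beta-2 adrenergic receptor, had 124 and 175 counts in the controls against 472 in KO-3 and 709 in KO-4. This is 8.68 and 12.8 CPM against 33.0 and 34.3 CPM, so the KO-labelled libraries lay close together, the controls differed by 0.56 on the log2 scale, and the groups did not overlap. The log2 fold change was 1.65 (SE 0.348, 95% interval 0.76 to 2.53, a 3.13-fold difference), with an edgeR adjusted p of 0.166 and a DESeq2 adjusted p of 0.0114. It was the smallest edgeR p of the family. Usp8 (ENSMUSG00000027363, chromosome 2, 126707328 to 126759297, plus strand), which recycles EGF receptor from endosomes, was at 40.7 and 52.7 CPM against 80.9 and 87.2 CPM (log2 fold change 0.85, SE 0.264, edgeR adjusted p = 0.172). Usp30, the mitochondrial outer membrane USP that counters Parkin, was at 12.5 and 11.4 CPM against 18.9 and 20.6 CPM. Of the 6, Usp33 lay above both controls under all 5 scalings, Usp19 under 4, Usp8 and Usp30 under 3 and Usp32 under 2. Usp20, a close relative of Usp33, overlapped between the groups on the TMM scale. It was at 40.9 CPM in Control 1, 37.4 in Control 2, 44.5 in KO-3 and 24.8 in KO-4 (edgeR log2 fold change -0.18, SE 0.364, adjusted p = 0.767). Under upper-quartile, library-size and median scaling Usp20 lay below both controls.

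The ratio of related members within a library does not depend on any library scaling, and 17 such pairs were compared. The pair Usp20/Usp33 had an FPKM ratio of 5.05 in Control 1, 3.13 in Control 2, 1.45 in KO-3 and 0.775 in KO-4. In each control Usp20 was the more abundant of the 2 per length, and in KO-4 it was Usp33. On the log2 scale the ratio differed by -1.91 (pooled SD 0.569, n = 2 per group), and it was the only pair of the 17 whose groups were at least 2-fold apart in every comparison of libraries. Groups did not overlap for 9 pairs, 5 with a higher and 4 with a lower ratio in the KO-labelled libraries, and overlapped for 8. Order alone separates 2 libraries from 2 others in 0.333 of arrangements, and no share over other gene pairs was computed. The 9 include Usp22/Usp51 and Usp26/Usp29, with as few as 6 and 2 counts in a library. They also include Usp16/Usp45, whose groups were only 0.056 apart on the log2 scale. Usp25/Usp28 was at 6.92 and 8.47 against 1.39 and 3.89, and Usp35/Usp38 at 0.235 and 0.244 against 0.537 and 0.397. With 2 libraries per group an exact permutation test of 1 ratio cannot give a two-sided p under 0.333, so no p is given.

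**Figure D3:**
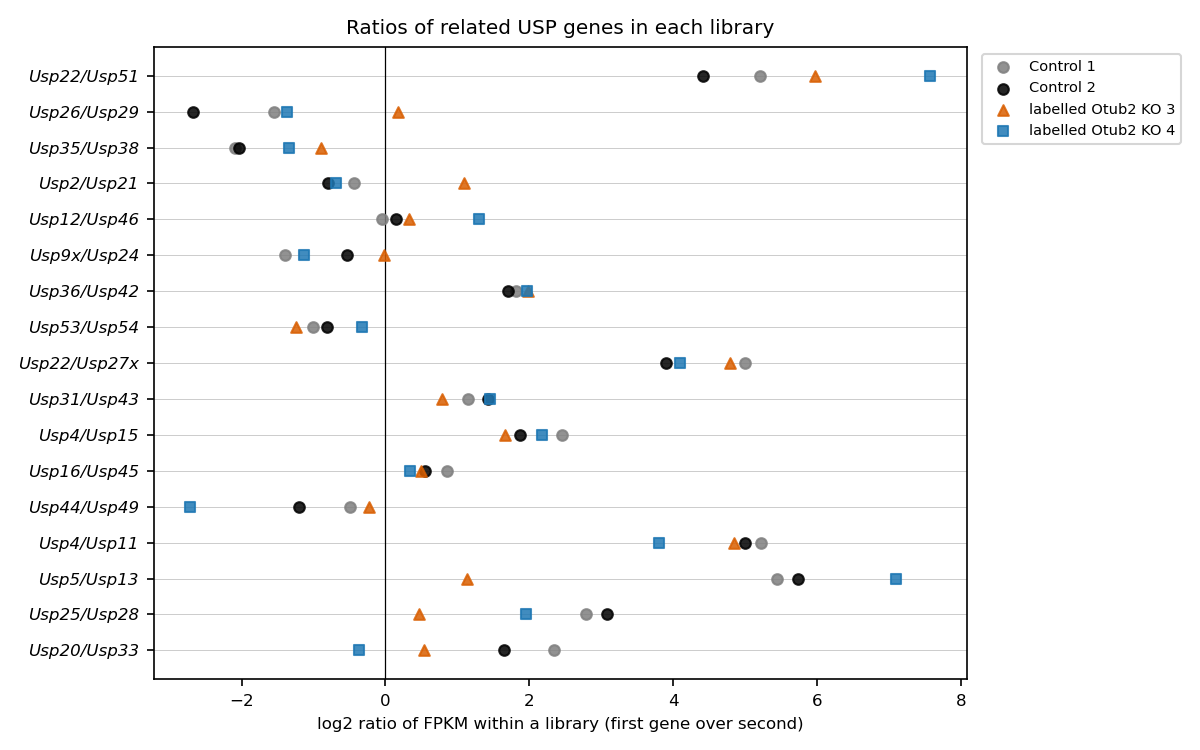
log2 ratio of FPKM of 17 pairs of related USP genes within each library, ordered by the difference between groups; symbols as in the plot of members by library. For Usp20/Usp33 (bottom row) both KO-labelled libraries lie left of both controls, at 0.53 and -0.37 against 2.34 and 1.64, whereas Usp5/Usp13 is low in KO-3 alone.

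Among 10 USPs of the cell cycle and the DNA damage response, 6 lay above both controls and 0 below on the TMM scale. This stands beside the same 33% and 22.8% of all genes, and 45.8% and 9.79% of genes of mean 10 to 200 CPM. The median log2 fold change was 0.85 for the 10 and 0.41 for all genes of that range. Usp28 (ENSMUSG00000032267, chromosome 9, 48985375 to 49042517, plus strand), which stabilises Myc and takes part in the 53BP1 pathway, measured 11.7 CPM in Control 1, 11.4 in Control 2, 63.3 in KO-3 and 22.1 in KO-4. The controls were almost equal and KO-3 exceeded KO-4 by 2.86-fold. The log2 fold change was 1.88 (SE 0.556, 95% interval 0.47 to 3.30, edgeR adjusted p = 0.169, DESeq2 adjusted p = 0.0475). Usp47 (ENSMUSG00000059263, chromosome 7, 112023504 to 112111661, plus strand), known for base excision repair through DNA polymerase beta, measured 105 and 121 CPM against 210 and 360 CPM (1.33, SE 0.357, edgeR adjusted p = 0.166), here with KO-4 the higher. Usp24 (ENSMUSG00000028514, chromosome 4, 106316213 to 106441322, plus strand), one of the largest family members, showed the same order at 60.8 and 84.2 CPM against 129 and 179 CPM (1.09, SE 0.317, edgeR adjusted p = 0.168). Usp48 (ENSMUSG00000043411, chromosome 4, 137593755 to 137658537, plus strand) measured 57.9 and 62.3 CPM against 116 and 84.2 CPM (0.74, SE 0.277, edgeR adjusted p = 0.196). Usp47 was above both controls under 4 of 5 scalings and Usp24 under 3. Usp7 and Usp10, which both act on p53, had log2 fold changes of 0.11 and 0.10 with overlapping groups, and Usp37, a deubiquitinase of cyclin A, of 0.19.

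In the signalling group 2 of 5 lay above both controls and 0 below on the TMM scale. Of all genes of mean CPM at least 1, 33% lay above and 22.8% below, and of those of 10 to 200 CPM 45.8% and 9.79%. The share above in this group lies between those of all genes. Usp9x (ENSMUSG00000031010, X chromosome, 13071498 to 13173328, plus strand), a large enzyme that acts on beta-catenin, Smad4 and Hippo pathway proteins, measured 28.1 CPM in Control 1, 70.5 in Control 2, 154 in KO-3 and 99.8 in KO-4. The controls themselves differed by 2.51-fold, the widest gap between controls among the tested members, and its log2 fold change was 1.37 (95% interval 0.06 to 2.68, edgeR adjusted p = 0.197). Without Control 1 it was 0.86 and without Control 2 2.20. Usp34, which acts on axin in Wnt signalling, was at 54.7 and 84.6 CPM against 105 and 113 CPM. Usp4, Usp15 and Usp25 overlapped between groups, and Usp25 differed least, at 72.1 and 86.3 CPM against 78.4 and 76.7 CPM.

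Usp1, Usp12 and Usp46 need the scaffold protein Wdr48 for full activity. Usp12 (ENSMUSG00000029640, chromosome 5, 146734809 to 146795006, minus strand) was at 16.3 and 21.6 CPM against 32.7 and 46.4 CPM (log2 fold change 1.06, SE 0.339, edgeR adjusted p = 0.173). Usp1, which acts on Fancd2 and PCNA, and Usp46 overlapped between groups, with log2 fold changes of 0.42 and 0.30. Wdr48 itself measured 15.5 and 18.4 CPM against 39.2 and 37.2 CPM (1.17, SE 0.288, edgeR adjusted p = 0.166), above both controls in both libraries. Of the 8 USP partners examined, Wdr48 among them, 4 lay above and 0 below, and 0 passed the test. Of all genes of mean 10 to 200 CPM, the range that holds the 8, 45.8% lay above and 9.79% below.

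The chromatin group, which removes ubiquitin from histones H2A and H2B, held members on both sides. Of 8 members 3 lay above both controls and 3 below, beside 26.9% and 33.1% of all genes tested, and the median log2 fold change was 0.15. Usp22 was at 69.1 and 62.5 CPM against 77.6 and 122 CPM, with KO-4 the higher. Its relative Usp27x, of low abundance, was at 1.89 and 3.66 CPM against 2.44 and 6.24 CPM. Usp51 had 12, 18, 8 and 6 counts. Usp44 (ENSMUSG00000020020, chromosome 10, 93831555 to 93858088, plus strand), a mitotic checkpoint and H2B deubiquitinase, had 47 and 32 counts in the controls against 25 in KO-3 and 12 in KO-4, or 3.29 and 2.34 CPM against 1.75 and 0.581 CPM (log2 fold change -1.29, SE 0.669, edgeR adjusted p = 0.275). Without KO-3 the value was -2.24 and without KO-4 -0.69. Its paralog Usp49 (chromosome 17, 47630690 to 47686738, plus strand) was at 9.87 and 11.4 CPM against 4.33 and 8.08 CPM. Usp3, Usp16 and Usp21, which act on H2A, had log2 fold changes between 0.01 and 0.31.

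Usp29 (ENSMUSG00000051527, chromosome 7, 6730578 to 6967219, plus strand), an imprinted gene beside Peg3, had 64, 56, 35 and 34 counts (log2 fold change -1.07, SE 0.486, edgeR adjusted p = 0.234). Usp50 (chromosome 2, 126709096 to 126783470, minus strand), whose span overlaps that of Usp8 on the other strand, had 35, 17, 15 and 15 counts (-1.07, SE 0.554, edgeR adjusted p = 0.276). These differences rest on few reads. Of all 21916 genes tested, of any abundance, 33.1% lay below both controls, beside 22.8% of those with a mean of at least 1 CPM. Among 8 less studied members, Usp35 (ENSMUSG00000035713, chromosome 7, 97309380 to 97332020, minus strand) lay highest above the controls. It measured 6.16 and 7.32 CPM against 21.02 and 13.7 CPM (1.36, SE 0.416, edgeR adjusted p = 0.170), while its relative Usp38 was at 28.5 and 32.6 CPM against 42.5 and 37.6 CPM.

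Usp13 was set apart by 1 library. Usp13 (ENSMUSG00000056900, chromosome 3, 32817546 to 32938071, plus strand), a paralog of Usp5 that binds ubiquitin chains and is known to be abundant in striated muscle, had 52, 37, 1316 and 33 counts in Control 1, Control 2, KO-3 and KO-4. On the TMM scale it was at 3.64, 2.71, 91.9 and 1.60 CPM, so that KO-3 stood 57.5-fold above KO-4 and 28.9-fold above the mean of the controls. The edgeR log2 fold change of 3.87 (SE 1.69, adjusted p = 0.224) averages these. Without KO-3 it was -0.96 and without KO-4 4.85. Usp2, a clock-regulated enzyme that stabilises cyclin D1 and Mdm2, was also highest in KO-3, at 17.5, 13.1, 50.2 and 14.3 CPM (log2 fold change 1.07, SE 0.637, edgeR adjusted p = 0.322). Some muscle markers were high in the same library. Myh6, the cardiac alpha myosin heavy chain, was at 3.71, 4.39, 9390 and 0.436 CPM, Ryr2, the cardiac ryanodine receptor, at 6.86, 6.37, 603 and 3.05 CPM, and Ckm, the muscle creatine kinase, at 0.98, 1.03, 290 and 0.0968 CPM. Other skeletal markers went the other way in KO-3, such as the myosin Myh1 at 6.16, 4.76, 1.40 and 20.03 CPM. Among cardiomyocyte markers that did not stand out in KO-3, Myl7, an atrial light chain, was at 2.10, 2.64, 2.23 and 1.55 CPM. The part of muscle or gland RNA in the values of Usp13, Usp2 and Usp28 was not tested. For Usp28 the value without KO-3 was 0.96, so the direction was present in KO-4 as well.

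Set alone against the 2 controls, each library labelled KO gave calls that the joint fit did not. In such a fit the spread rests on the controls only, and the cause of the added calls was not tested. For KO-4 alone edgeR called 19 members higher and 5 lower (40.4% and 10.6%), beside 18.8% and 22% of all genes. For KO-3 alone it called 14 higher and 1 lower (29.8% and 2.13%), beside 22.4% and 12.7% of all genes. Each fit takes the single library to vary like the controls, which both fits share. In KO-4 the smallest p was that of Usp47 (log2 fold change 1.70, adjusted p = 9.92e-10), followed by Usp33 (1.70, adjusted p = 7.52e-08) and Usp24 (1.33, adjusted p = 3.04e-06). In KO-3 it was that of Usp13 (4.85, adjusted p = 3.48e-56), followed by Usp28 (2.45, adjusted p = 1.4e-17) and Usp9x (1.64, adjusted p = 3.15e-09). Usp33 had 1.61 there (adjusted p = 1.32e-07), near its value in KO-4. When 1 library was left out, the share of all genes above the controls was 42.3% without Control 1, 43.7% without Control 2, 49.5% without KO-3 and 49.2% without KO-4, beside 29 of 45, 32, 33 and 31 of 46 members, and the share below was 23.7%, 24.6%, 38.9% and 38.1%, beside 4, 4, 6 and 7 members. Over all 48 members the median absolute log2 difference was 0.22 between the controls and 0.50 between KO-3 and KO-4. Besides Usp13 and Usp2, the widest gaps between KO-3 and KO-4 among members of mean CPM at least 1 were in Usp44 (3.01-fold), Usp28 (2.86-fold), Usp27x (2.55-fold) and Usp11 (2.23-fold). For Usp27x and Usp11, a BRCA2-binding enzyme, KO-4 was the higher.

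**Figure D4:**
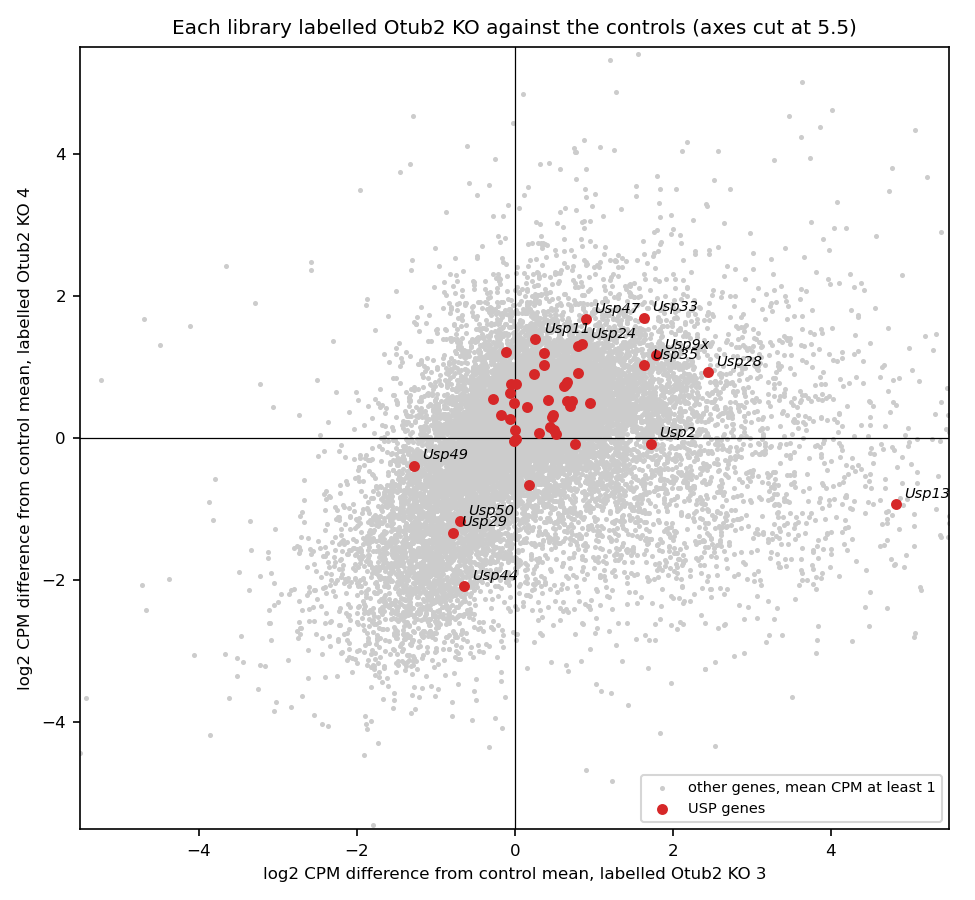
log2 CPM difference from the mean of the controls in KO-3 (horizontal) and KO-4 (vertical) for genes of mean CPM at least 1; USP genes are red, other genes grey, and both axes are cut at 5.5. On the TMM scale 29 of 46 USP genes (63%) lie above 0 on both axes, beside 40.9% of all genes plotted, with Usp33 near the diagonal at 1.63 and 1.69 and Usp13 far to the right and below 0; both axes share the 2 controls.

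The upstream sequence of members was read from RefSeq (GRCm38.p6), which gave the 250 bases before a start for 37 of 48 members. The RefSeq start can differ from the GENCODE gene start. The distance was 9114 to 53966 bases for Usp2, Usp7, Usp30, Usp37, Usp45 and Usp54, and at most 417 for the other members with a window. These windows had a median GC content of 65.2% against 52.4% over 32817 windows of all genes, and a median of 24 CpG against 6. The GC box GGGCGG (either strand, as for all motifs) was in 25 of 37 windows (67.6%) beside 32.7% of all, and CCAAT in 8 (21.6%) beside 33.8%. TATAAA was in 2 (5.41%) beside 12.4%, and GGAATG, the core bound by TEAD factors, in 3 (8.11%) beside 12.6%. The ETS site CCGGAAGT was in 3 (8.11%) beside 2.88%, the E-box CACGTG in 3 (8.11%) beside 6.02%, CAGCTG in 6 (16.2%) beside 13%, and the CRE TGACGTCA in 0 beside 1.55%. The core TAAAAATAG of sites of MEF2, a muscle and heart factor, was searched after the Usp13 window had been read and was in 1 window, that of Usp13 (2.7%), beside 0.454% of all. A match is only a match of letters, and binding was not measured.
The windows of Usp13, high in KO-3 alone, Usp28 and Usp47, above the controls in both KO-labelled libraries, and Usp29, below them, are given 5′ to 3′ on the plus strand of GRCm38, on which all 4 genes lie, with matches to any of the 9 motifs in capitals. They are chr3:32817376-32817625, chr9:48985135-48985384, chr7:112023256-112023505 and chr7:6730333-6730582.
Usp13: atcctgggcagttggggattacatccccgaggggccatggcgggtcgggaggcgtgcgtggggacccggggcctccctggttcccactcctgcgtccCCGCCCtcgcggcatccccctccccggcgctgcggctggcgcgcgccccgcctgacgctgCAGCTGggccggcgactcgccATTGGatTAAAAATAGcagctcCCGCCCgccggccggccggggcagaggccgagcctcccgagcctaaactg
Usp28: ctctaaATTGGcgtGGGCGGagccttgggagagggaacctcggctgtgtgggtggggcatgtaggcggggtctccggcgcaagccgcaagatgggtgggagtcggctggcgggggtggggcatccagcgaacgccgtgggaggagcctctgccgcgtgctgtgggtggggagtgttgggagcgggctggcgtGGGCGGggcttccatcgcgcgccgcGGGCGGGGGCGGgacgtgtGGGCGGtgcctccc
Usp47: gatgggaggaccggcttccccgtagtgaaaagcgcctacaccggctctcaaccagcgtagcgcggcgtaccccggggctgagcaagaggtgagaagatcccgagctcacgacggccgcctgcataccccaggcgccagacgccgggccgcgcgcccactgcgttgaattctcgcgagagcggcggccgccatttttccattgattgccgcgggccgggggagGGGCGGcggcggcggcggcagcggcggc
Usp29: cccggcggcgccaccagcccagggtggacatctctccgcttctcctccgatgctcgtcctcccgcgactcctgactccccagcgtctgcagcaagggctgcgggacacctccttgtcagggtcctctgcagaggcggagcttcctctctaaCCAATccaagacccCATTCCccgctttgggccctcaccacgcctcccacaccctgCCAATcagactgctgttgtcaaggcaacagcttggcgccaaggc
In the Usp13 window the MEF2 core follows a reverse CCAAT and precedes a reverse GC box. These matches lie in the last 80 bases of the window, which are inside the gene by its GENCODE start. The Usp28 window holds 5 GC boxes, 2 of them adjoining, and a reverse CCAAT, the Usp47 window 1 GC box, and the Usp29 window 2 CCAAT boxes and a reverse TEAD core with no GC box.

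Deubiquitinases whose symbols do not follow the Usp pattern were measured in the same fit. Of 25 such deubiquitinases, Cyld with its USP-type domain among them, 9 lay above both controls and 2 below. None were called, and their median log2 fold change was 0.17. Of all genes of mean CPM at least 1, 33% lay above and 22.8% below. Among genes of mean 10 to 200 CPM, the range of most of the 25, these shares were 45.8% and 9.79%, with a median of 0.41. Cyld, a deubiquitinase of NF-kB signalling, measured 18.1 and 20.7 CPM against 57.5 and 36.7 CPM (1.28, SE 0.338, edgeR adjusted p = 0.166). It is 1 of the 9 above. Otud5 was at 36.7 and 37.1 CPM against 66.1 and 70.3 CPM. Uchl3, which processes ubiquitin precursors, was at 82.9 and 90.9 CPM against 47.3 and 59.2 CPM.

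The remaining 23 tested members not chosen by the naming rule had log2 fold changes from -1.37 to 0.84 and edgeR adjusted p from 0.204 to 0.993. The strand setting of the counting is not given in the sources used here, and 17 members share exon sequence with a gene on the other strand, 9 of them with a protein-coding one. Usp16 overlaps Cct8, Usp37 overlaps Cnot9, and Usp33 overlaps unconfirmed transcripts that had 40 counts or fewer in each library. Usp34 overlaps Ahsa2 (129, 141, 259 and 346 counts) and Usp40 overlaps Dgkd (281, 255, 818 and 838). Usp30 overlaps Alkbh2 (33, 28, 66 and 94 counts) and Svop (51, 62, 35 and 19). On its own strand Usp49 shares exon sequence with Gm20517 (19, 15, 7 and 7 counts). The part of these genes in the member counts was not tested.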

How the data were processed

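RNA of 4 libraries (2 labelled wild type, 2 labelled Otub2 knockout) was analysed from 1 deposited table. The authors deposited raw read counts per gene and library and an FPKM value for each, per the file headers. HISAT2, DESeq and the human build GRCh38 are listed without a role, per the submitters' processing notes, although the gene IDs are mouse Ensembl IDs. For the counting tool, strand and annotation the entry is: not given in the sources used here. Features without an Ensembl ID held 0.914% to 2.84% of counts and were left out. Coordinates are from GENCODE mouse release 21 (GRCm38), matched for 48 of 48 members.

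Counts were tested with edgeR 4.0.16 (quasi-likelihood, TMM, filterByExpr) in R 4.3.3, with Benjamini-Hochberg adjustment at 0.05 over all genes tested. SE comes from the F statistic, and intervals are at 95%. Per-library log2 differences add 0.1 CPM. Alternatives were RLE, upper-quartile, library-size and median scaling, DESeq2 1.42.0 without independent filtering, voom of limma 3.58.1, no count filter, unnamed features kept, and leaving out each library. The steps were tested on simulated data.

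Members, lists and tests were chosen with earlier results of these data known. Given with values were the 8 highest members by FPKM, non-overlapping members at least 2-fold apart, the 6 with the widest gap between KO-3 and KO-4, pairs at least 2-fold apart, and the 8 smallest p. Some other members were named after their values were seen. The labels give no batch. Groups share no replicate number. Results for some other genes of the ubiquitin system are not reported here.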

Additional observations from a re-analysis of the deposited data

How the results depend on the processing

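The count of members past the edgeR threshold was 0 in each direction under the 4 other scalings, voom, no count filter, with unnamed features kept and without either control. DESeq2 called 2 higher and 0 lower, beside 2.86% and 1.02% of all genes. Calls in the fits without KO-3 or without KO-4 were not confined to the family. The shares of all genes are given above, where each library is set alone against the controls. Each such fit leaves 1 library in a group. Leaving out 1 library gave 0 to 19 higher and 0 to 5 lower, with 19 and 5 without KO-3 and 14 and 1 without KO-4. Members above both controls numbered 11 under upper-quartile scaling, 5 with library size only and 7 with median centring, beside 12.4%, 10.9% and 15.4% of all genes. They numbered 30 without the count filter and 37 with unnamed features kept, beside 39.8% and 41.8%. With 1 library left out they numbered 29 to 33, beside 42.3% to 49.5%. Those below numbered 12 under upper-quartile scaling and 8 with library size only, beside 40.9% and 34.1%. With 1 library left out 4 to 7 lay below (7 without KO-4), beside 23.7% to 38.9%. The members' median log2 fold change was 0.48 with RLE factors and with DESeq2, -0.043 under upper-quartile scaling, 0.064 with library size only, 0.18 with median centring, 0.58 without the count filter and 0.68 with unnamed features kept, and 0.36 to 0.52 with 1 library left out. The difference in log2 ratio of Usp5/Usp13 was 1.51 without KO-3, against -4.45 to -1.33 when another library was left out. Those of Usp20/Usp33, Usp25/Usp28 and Usp35/Usp38 kept their sign in all 5 alternatives, none of which could have changed it. The groups of these pairs did not overlap, so leaving out 1 library cannot turn the sign. With raw counts, gene length cancels from the difference. Among the 17 members given with a fold change by the naming rule, log2 fold changes that reversed were those of Usp13 and Usp2 without KO-3, of Usp20 with unnamed features kept (0.074) and without KO-4, and of Usp27x without KO-4. With 1 library left out these ran from -0.96 (without KO-3) to 4.85 for Usp13, from -0.069 (without KO-3) to 1.71 for Usp2, from -0.63 to 0.18 (without KO-4) for Usp20, and from -0.18 (without KO-4) to 1.24 for Usp27x. Over all members tested, 17 had the other sign under upper-quartile scaling (Usp1, Usp3, Usp7, Usp10, Usp16 and Usp46 among them), 15 with library size only, 10 with median centring and 10 without KO-4, and 0 to 3 under each other alternative. Without Control 1 the log2 fold change of Usp50 was -0.49, and without KO-4 that of Usp11 was 0.27. The cause of these changes was not tested. No paired analysis was possible because the groups share no replicate number. Depth limits Usp26, Usp29, Usp44, Usp50 and Usp51 most, each with under 65 counts in every library.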
